A study of Rattus norvegicus with 6 samples.

Results

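Ddit4 and the genes that build and control mechanistic target of rapamycin complex 1 (mTORC1) were examined in cultured ventricular cardiomyocytes from newborn rats. The 10 genes, Ddit4, Ddit4l, Deptor, Tsc1, Tsc2, Rheb, Mtor, Rptor, Akt1s1 and Mlst8, were taken by symbol from a table of 34257 genes, and all 10 were present. The cells had received perhexiline at 1 µM for 24 h or vehicle, with 3 strand-marked libraries of poly(A) RNA per group, and no genotype or strain was given for either group. Perhexiline is used against angina and blocks carnitine palmitoyltransferase 1, through which long-chain fatty acids enter mitochondria. The question is how the drug changed the transcripts of this control system.

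mTORC1 is a protein kinase complex at the lysosome that promotes protein synthesis and cell growth and restrains autophagy when nutrients, growth factors and energy are sufficient. In heart muscle it is known for its part in hypertrophic growth. The small GTPase Rheb switches the kinase on, and the tuberous sclerosis complex of Tsc1 and Tsc2 switches Rheb off. Ddit4, also called REDD1, is transcribed in response to stress, low oxygen and glucocorticoids, and its protein lowers mTORC1 activity through the tuberous sclerosis complex. Much of the control of this system lies in phosphorylation and binding of proteins, which RNA levels do not measure.

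Levels are FPKM, fragments scaled to the length of the gene model and to a size for each library, as deposited by the authors. The whole-number fragments behind them numbered 13616252 to 15241994 per vehicle library and 14863929 to 16702523 per perhexiline library. Defining cardiomyocyte transcripts were abundant, with a summed level of 8 markers of 15472 to 18682 FPKM with vehicle and 12616 to 14523 with perhexiline, and 3 of the 8 (Tnni3, Myh6 and Myl2) were lower. Markers of other cells were present as well. The 8 fibroblast markers summed to 1043 to 1083 and 1003 to 1050 FPKM (Dcn and Pdgfra higher, Col3a1 lower), and 8 smooth muscle and pericyte markers to 789 to 1122 and 609 to 802 (none called). The 8 macrophage markers summed to 37.7 to 43.7 and 22.1 to 32.2 (6 tested, C1qa and Mrc1 lower), and 7 endothelial markers to 16.7 to 19.8 and 18.4 to 19.3 (4 tested, none called). In these bulk samples fewer cells of a type and less RNA per cell cannot be told apart, and the part of these shifts in the results was not tested. The labels do not say whether replicates came from different cultures or rats, and the p-values therefore speak only to the spread among these libraries, and that spread may be technical.

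The sequence before the start of Ddit4 is shown because Ddit4 was the only member that passed the test, and those of Trib3 and Chac1 because they are stress-response genes that also rose and that hold a motif Ddit4 lacks in this window. Trib3 and Chac1 were chosen for display after their values were seen. Each is the 250 bases before the start of the gene in RefSeq, read in the direction of transcription, in build GRCr8. For Ddit4 (chr20:28437038-28437287, minus strand) capitals mark matches to CCAAT and to ACGTG, the core of the site bound by hypoxia-inducible factors. For Trib3 (chr3:161275534-161275783, minus strand) and Chac1 (chr3:126795881-126796130, plus strand) capitals mark matches to TGATGNAA, the core of the composite site of C/EBP and ATF proteins. Both strands were searched.
Ddit4: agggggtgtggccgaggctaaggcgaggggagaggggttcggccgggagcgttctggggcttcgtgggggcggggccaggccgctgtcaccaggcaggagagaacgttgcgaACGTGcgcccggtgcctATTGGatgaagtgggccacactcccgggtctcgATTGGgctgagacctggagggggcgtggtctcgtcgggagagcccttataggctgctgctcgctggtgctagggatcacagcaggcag
Trib3: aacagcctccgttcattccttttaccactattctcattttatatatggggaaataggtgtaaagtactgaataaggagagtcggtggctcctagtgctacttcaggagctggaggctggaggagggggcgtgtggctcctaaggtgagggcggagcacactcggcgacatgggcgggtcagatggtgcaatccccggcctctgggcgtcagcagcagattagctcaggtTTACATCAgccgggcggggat
Chac1: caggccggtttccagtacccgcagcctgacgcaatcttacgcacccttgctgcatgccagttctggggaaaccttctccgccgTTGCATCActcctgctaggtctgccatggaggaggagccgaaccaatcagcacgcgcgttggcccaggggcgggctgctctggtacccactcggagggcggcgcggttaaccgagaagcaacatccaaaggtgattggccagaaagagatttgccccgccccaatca

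The Ddit4 window held 2 matches to CCAAT, whose first bases lie 121 and 88 bases before the start, and 1 match to ACGTG, 138 bases before it. It also held 1 match to the GC box GGGCGG, not marked above, and its GC content was 67.6%, against a median of 52.0% over all promoters. Of 27457 promoters of the same length, 34.3% held CCAAT, 16.9% ACGTG, 32.4% GGGCGG and 3.27% TGATGNAA. Of the 8 members with a promoter entry, 5 held CCAAT (Ddit4, Ddit4l, Mtor, Akt1s1 and Mlst8), 4 held ACGTG (Ddit4, Tsc2, Rheb and Akt1s1), 5 held GGGCGG and 0 held TGATGNAA. In Rheb and Akt1s1 the ACGTG matches lie within the E-box CACGTG, found in 5.79% of promoters. No member held the AP-1 letters TGANTCA (6.36% of promoters) or the glucocorticoid response letters ACANNNTGT (5.62%), and the FOXO letters GTAAACA (3.25%) were found in Akt1s1 only. These matches describe letters within the window and not sites in use.

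Ddit4 rose about 1.96-fold with perhexiline (chromosome 20, 29509289 to 29511382, minus strand, in the coordinates of the deposited table; the build was not given in the sources used here). Its level was 11.2, 11.3 and 9.98 FPKM in the vehicle libraries and 21.8, 22.2 and 19.7 in the perhexiline libraries. All perhexiline libraries lay above all vehicle libraries, and the replicates of each group lay close together. The 265, 296 and 240 fragments with vehicle and 649, 600 and 590 with perhexiline give a counting error of 6.12% and 4.04%, beside spreads of 6.67% and 6.40% between replicates. The log2 difference, taken on log2(FPKM + 1), was 0.91 ± 0.074 (SE; 95% confidence interval 0.74 to 1.08; limma adjusted p = 0.00508 over 13460 genes). Of all tested genes 6.66% passed an adjusted p of 0.05, 3.55% higher and 3.11% lower. Among those 478 higher genes, 56 had a larger difference than Ddit4, and among all tested genes, called or not, 100 did. A smaller adjusted p was found for 4 tested genes, and a smaller unadjusted p for 6. The call held in all 13 alternative analyses, with differences of 0.86 to 0.97 and adjusted p of at most 0.0272.

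**Figure D1:**
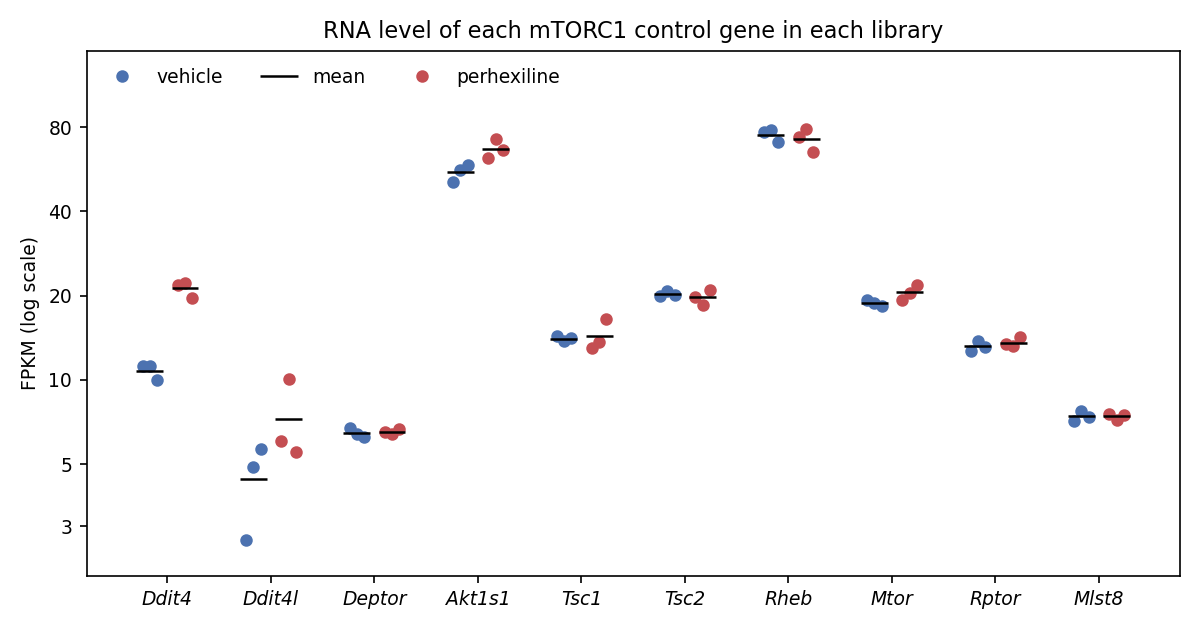
Level of each of the 10 genes in each library, in FPKM on a log scale, with vehicle in blue, perhexiline in red and a black line at each group's mean of 3 libraries. Ddit4 lies at 9.98 to 11.3 with vehicle and 19.7 to 22.2 with perhexiline, while 8 of the other genes show overlapping groups and Akt1s1 lies slightly higher with perhexiline.

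Of the 10 genes, all of which were tested, 1 was called higher (Ddit4), 0 lower and 9 were not called, in a table where 6.66% were called. Groups did not overlap for 2 members, Ddit4 and Akt1s1, and for 31.9% of all tested genes. The median log2 difference was 0.03 over the members and 0.01 over all tested genes, and the median absolute difference was 0.05 against 0.12. So the members other than Ddit4, Ddit4l and Akt1s1 lay within 0.12 of 0 on the log2 scale.

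Ddit4l, the paralog of Ddit4 also called REDD2 and likewise an inhibitor of mTORC1, had the next largest difference but a wide spread (chromosome 2, 242882306 to 242885131). It stood at 2.68, 4.90 and 5.68 FPKM with vehicle and at 6.07, 10.1 and 5.52 with perhexiline. The groups overlapped, since perhexiline replicate 3 lay below vehicle replicate 3, and vehicle replicate 1 and perhexiline replicate 2 lay apart from the rest. The replicate spread was 35.2% and 34.7% of the mean, above the counting error of 13.2% and 9.65% that its 33 to 142 fragments per library allow. The log2 difference of 0.61 ± 0.27 (SE; 95% confidence interval -0.02 to 1.23) did not pass (limma adjusted p = 0.205). It was 0.35 without vehicle replicate 1 and 0.37 without perhexiline replicate 2, and up to 0.78 without another library. A change as large as that of Ddit4 lies within this interval, and so does none.

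The inhibitory subunits of the complex did not pass the test. Akt1s1 encodes PRAS40, which holds mTORC1 in check until it is phosphorylated by AKT (chromosome 1, 100845563 to 100851960). It stood at 51.1, 56.3 and 58.5 FPKM with vehicle and 62.0, 72.7 and 66.4 with perhexiline. The groups did not overlap, with a ratio of means of 1.21 and a log2 difference of 0.27 ± 0.075 (SE; 95% confidence interval 0.10 to 0.45; limma adjusted p = 0.0716, unadjusted p = 0.00749). With limma-voom on the recovered fragments the gene passed (adjusted p = 0.0377), and in the other 12 alternatives it did not. Deptor, which binds and inhibits the kinase, stood at 6.24 to 6.71 FPKM with vehicle and 6.41 to 6.66 with perhexiline. Its interval of -0.15 to 0.17 on the log2 scale corresponds to ratios of 0.904 to 1.13 on the FPKM + 1 scale.

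The tuberous sclerosis complex and its target Rheb stayed within the spread of their replicates. Tsc1, which stabilises the complex, stood at 13.8 to 14.3 FPKM with vehicle and at 13.04, 13.7 and 16.6 with perhexiline, so that perhexiline replicate 3 lay above all other libraries (log2 difference 0.03, interval -0.18 to 0.23). Tsc2, the subunit that acts on Rheb and that Ddit4 signals through, stood at 19.96 to 20.7 and 18.5 to 20.9 FPKM (log2 difference -0.04, interval -0.18 to 0.10). Rheb stood at 70.8 to 78.2 and 65.3 to 79.1 FPKM (log2 difference -0.05, interval -0.23 to 0.13). The signs of these differences changed with the scaling or the library left out. The paralog Rhebl1, no member, stood at 2.66 ± 0.826 and 2.90 ± 0.878 FPKM (mean ± SD, n = 3 per group, as below).

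The core of the complex was also without a call. Mtor, the kinase itself (chromosome 5, 165263800 to 165373967), stood at 19.4, 18.9 and 18.4 FPKM with vehicle and at 19.4, 20.4 and 21.9 with perhexiline. The groups overlapped at their edges, with perhexiline replicate 1 at the level of vehicle replicate 1, and the log2 difference was 0.12 ± 0.061 (SE; interval -0.03 to 0.26; limma adjusted p = 0.28). Rptor, the scaffold that presents substrates to the kinase, stood at 12.7 to 13.7 and 13.2 to 14.2 FPKM (log2 difference 0.04, interval -0.10 to 0.18). Mlst8, which mTORC1 shares with the second mTOR complex, stood at 7.15 to 7.74 and 7.19 to 7.57 FPKM (log2 difference 0.0023, interval -0.15 to 0.16). In the table's coordinates Tsc2 shares 62 bases with Pkd1, Mtor spans Angptl7 (mean 1.08 FPKM), and Mlst8 overlaps Bricd5 (listed at 0 in all libraries), each on the opposite strand. Mtor also holds the small nuclear RNA gene RF00026 on its own strand (82 bases, at most 1.77 FPKM). Whether counting used the strand was not given in the sources used here. Ddit4 overlaps no other gene of the table.

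**Figure D2:**
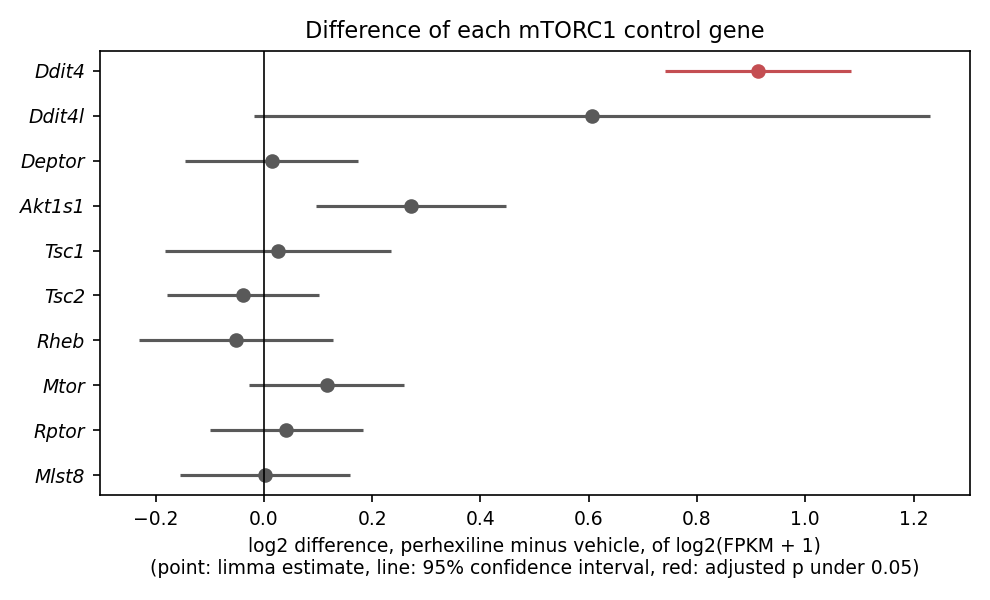
Log2 difference between perhexiline and vehicle of each of the 10 genes, on log2(FPKM + 1), as a limma estimate from 3 libraries per group (point) with its 95% confidence interval (line). Only Ddit4, in red at 0.91, passed an adjusted p of 0.05, and the widest interval is that of Ddit4l, from -0.02 to 1.23.

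Ddit4 stood lower in the order of the levels with vehicle than with perhexiline. With vehicle the order per length of gene model was Rheb (75.2 ± 3.90 FPKM), Akt1s1 (55.3 ± 3.81), Tsc2 (20.3 ± 0.404), Mtor (18.9 ± 0.502), Tsc1 (14.1 ± 0.272), Rptor (13.2 ± 0.509), Ddit4 (10.8 ± 0.721), Mlst8 (7.42 ± 0.299), Deptor (6.46 ± 0.240) and Ddit4l (4.42 ± 1.56), and no neighbours in that order overlapped. With perhexiline Ddit4 (21.2 ± 1.36) stood next after Rheb (72.7 ± 6.95) and Akt1s1 (67.0 ± 5.37), and the ranges of Rheb and Akt1s1 overlapped each other. The ranges of Ddit4 and Mtor (20.6 ± 1.27) overlapped, as did those of Mtor and Tsc2 (19.7 ± 1.21), of Tsc1 (14.4 ± 1.88) and Rptor (13.6 ± 0.522), and of Mlst8 (7.43 ± 0.204), Ddit4l (7.23 ± 2.51) and Deptor (6.53 ± 0.125) as neighbours. Among all tested genes the level of Ddit4 exceeded that of 47.9% to 51.3% of genes in the vehicle libraries and of 66.9% to 70.4% in the perhexiline libraries.

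Ratios within a library do not depend on how libraries are scaled. The level of Ddit4 divided by that of Tsc2 was 0.561, 0.543 and 0.497 with vehicle and 1.10, 1.202 and 0.942 with perhexiline, so it went from 0.534 ± 0.0331 to 1.08 ± 0.131. The groups did not overlap, and the two-sided exact permutation test gave p = 0.1, the smallest that 3 against 3 libraries allow (0.25 adjusted over 10 ratios). Of the 10 ratios 4 reached this p, those of Ddit4 over Tsc2 and over Tsc1, Akt1s1 over Rptor and Deptor over Mtor. Akt1s1 over Rptor went from 4.198 ± 0.248 to 4.94 ± 0.495 without overlap (exact permutation p = 0.1, 0.25 adjusted). Rheb over Tsc2 was 3.71 ± 0.165 and 3.71 ± 0.578 (exact permutation p = 1, adjusted p = 1), and Rptor over Mtor was 0.699 ± 0.0371 and 0.662 ± 0.0253 (exact permutation p = 0.2, 0.286 adjusted).

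Transcription factors known to induce Ddit4 were higher in part. Of 13 tested, 4 rose and 0 fell, and the median of their log2 differences was 0.13 against 0.01 over all genes. The rises make 30.8% of the list, against 3.55% of all tested genes. Among them were Cebpb, which rose 1.81-fold, Ddit3 (the stress factor CHOP), from 43.2 ± 9.32 to 71.7 ± 7.34 FPKM, and Atf4, from 156 ± 11.9 to 193 ± 9.61. Hif1a, a subunit of the hypoxia-inducible factor, stood at 33.9 ± 1.48 and 40.6 ± 2.62 FPKM without overlap and did not pass (limma adjusted p = 0.0569). Among the alternatives Hif1a was called higher only with a minimum mean of 5 FPKM, total-fragment scaling and limma-voom. Cebpb passed in all 6 fits without 1 library. Ddit3 passed in 2 of these, without vehicle replicate 3 or perhexiline replicate 1, and Atf4 in none (adjusted p up to 0.130).

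Targets of the integrated stress response, which ATF4 drives when translation is restrained, had 8 rises and no fall among 20 tested, and their median was 0.27. Besides Gdf15 (3.56-fold), Atf3 (2.36-fold) and Slc3a2 (1.30-fold), the serine enzyme gene Shmt2 went from 48.6 ± 1.85 to 58.6 ± 1.34 FPKM. Trib3, a pseudokinase that binds AKT, went from 14.9 ± 1.13 to 22.5 ± 3.32 and Chac1, which degrades glutathione, from 14.3 ± 0.419 to 17.7 ± 0.994. The other rises were those of Ddit3, counted above as well, and Ppp1r15a. Sesn2, an inducible inhibitor of mTORC1 that also senses leucine, stood at 25.2 ± 2.66 and 29.5 ± 1.53 FPKM with overlapping groups (limma adjusted p = 0.139). Of the 7 called targets with a promoter entry, 2 (Trib3 and Chac1, shown above) held TGATGNAA. The count was 2 when vehicle replicates 1 or 2 or perhexiline replicate 2 was left out and with no filter on low values, 1 without perhexiline replicate 3, and 9 without vehicle replicate 3 or perhexiline replicate 1. Gdf15 alone among the 8 passed in all of these, Atf3 was lost without perhexiline replicate 3 (adjusted p = 0.0553), and Trib3 and Chac1 passed in 2 and 0 of the 6 fits without 1 library. With the replicate number as a block, only Gdf15 was called.

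Targets of the glucocorticoid receptor, another inducer of Ddit4, lay above 0 in 12 of 13 tested genes, with a median of 0.24. Of the 13, 3 rose (23.1%) and 1 fell (7.69%), against 3.55% and 3.11% of all tested genes. The share of all tested genes above 0 is not given here. The metallothionein Mt2A rose 2.35-fold, the NF-kB inhibitor Nfkbia went from 19.3 ± 2.35 to 41.6 ± 6.90 FPKM, and the kinase Sgk1 went from 11.9 ± 0.969 to 17.3 ± 2.91. The fall was that of Tsc22d3, the glucocorticoid-induced leucine zipper, from 22.5 ± 1.01 to 18.6 ± 0.855. Mt2A has near-identical metallothionein relatives, and how reads were divided among them is uncertain. Mt2A and Nfkbia kept their calls without any 1 library, Sgk1 in 1 of these 6 fits and Tsc22d3 in none (adjusted p up to 0.130 and 0.146), and Tsc22d3 also missed with total-fragment scaling (0.0814).

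Hypoxia-inducible targets, which share a regulator with Ddit4, had 1 rise and no fall among 18 tested, and their median was -0.01, or 5.56% called higher in a table with 3.55%. The rise was that of the glucose transporter Slc2a1, from 53.2 ± 0.558 to 66.8 ± 4.18 FPKM, which kept its call in 2 of the 6 left-out fits (highest adjusted p 0.0808). Vegfa, the vascular growth factor, stood at 121 ± 12.0 and 150.3 ± 10.4 FPKM (limma adjusted p = 0.0651), and Pdk1, which shuts carbon out of the citric acid cycle, at 17.4 ± 1.69 and 14.8 ± 0.235 (0.125). Among the alternatives Vegfa was called higher only with a minimum mean of 5 FPKM, total-fragment scaling and limma-voom.

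**Figure D3:**
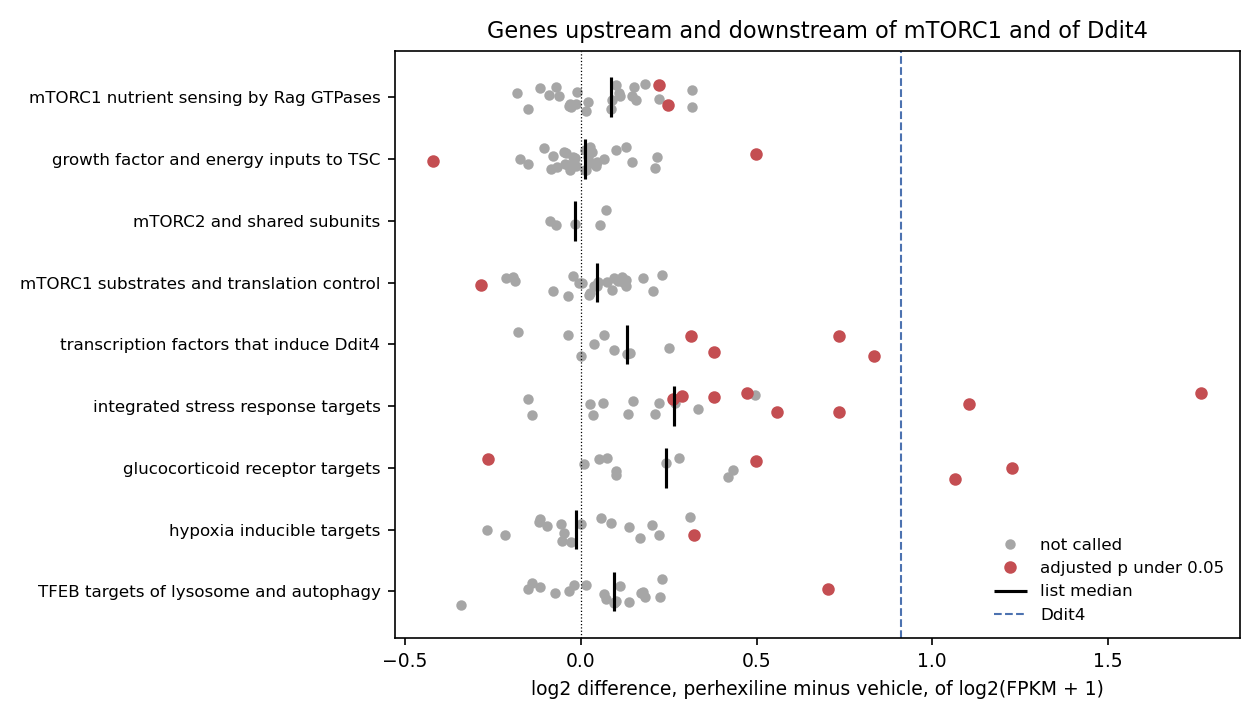
Log2 difference between perhexiline and vehicle, on log2(FPKM + 1), of each tested gene of 9 lists (points, with red for adjusted p under 0.05), with the list median as a black bar and the value of Ddit4, 0.91, as a dashed line. Red points are most frequent among the integrated stress response targets (8 of 20), the inducers of Ddit4 (4 of 13) and the glucocorticoid receptor targets (3 higher and 1 lower of 13). Some genes stand in more than 1 list.

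The branch that reports amino acids to mTORC1 through the Rag GTPases had 2 rises and no fall among 27 tested genes. The rises make 7.41% of the list, against 3.55% of all tested genes, and the median was 0.09 against 0.01. With total-fragment scaling and with limma-voom there were 4 rises, and with upper-quartile scaling 0. Rragc, a Rag GTPase, went from 47.4 ± 2.08 to 56.6 ± 2.92 FPKM, and Lamtor1, which anchors the Rag GTPases to the lysosome, from 60.6 ± 1.80 to 70.9 ± 3.21. Both had adjusted p near the threshold (0.0463 and 0.0459), missed it under upper-quartile scaling (0.0561 and 0.0542), and passed in 2 and 1 of the 6 fits without 1 library. Lamtor4 was listed at 0 in all libraries.

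Inputs to the tuberous sclerosis complex from growth factors and energy had 1 rise and 1 fall among 33 tested, with a median of 0.01. These are 3.03% in each direction, near the 3.55% and 3.11% of all tested genes, so the counts are no result about the list. Prkag2, a regulatory subunit of the energy sensor AMPK, stood at 14.5, 15.6 and 14.3 FPKM with vehicle and at 12.3, 10.5 and 9.73 with perhexiline, a fall to 0.733 times its vehicle mean (limma adjusted p = 0.0377). The rise was that of Sgk1, counted above. With 1 library left out Prkag2 kept its call once, without perhexiline replicate 1 (highest adjusted p 0.126). The second mTOR complex and shared assembly factors had 5 tested genes, of which 0 were called with limma, and 0 had an unadjusted p under 0.05 (0 called with limma-voom as well). Their most abundant member, Mapkap1, stood at 16.5 ± 0.496 and 16.3 ± 0.526 FPKM.

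Substrates of mTORC1 and genes of translation control had no rise and 1 fall among 25 tested, with a median of 0.05. One fall makes 4.0% of the list, near the 3.11% of all tested genes called lower, so the count is no result about the list. The fall was that of Mitf, a transcription factor of lysosomal genes that mTORC1 phosphorylates, from 10.03 ± 0.376 to 8.06 ± 0.0584 FPKM (limma adjusted p = 0.0414). With any 1 library left out it missed the threshold, and it did not pass with total-fragment scaling (adjusted p up to 0.130). Its relative Tfe3 stood at 20.1 ± 1.26 and 23.8 ± 1.47 FPKM without overlap (0.0860). The list held 10 genes with an unadjusted p under 0.05. The share of all tested genes under that p is not given here, so this count is no result about the list either. Among the 10 were the S6 kinase gene Rps6kb1, at 22.9 ± 0.998 and 19.9 ± 0.441 (0.0774), and the initiation factor gene Eif4b, at 100.2 ± 3.41 and 113 ± 3.76 (0.0689). With total-fragment scaling the calls of the list were instead 2 rises, of Eif4b and Eif4g1. With limma-voom they were 2 falls, of Eef2k and Mitf, and without perhexiline replicate 1 there was 1 rise, of Larp1. The other left-out fits, the replicate block and the fit with no filter on low values called 0.

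Lysosome and autophagy genes driven by TFEB, a factor that mTORC1 keeps out of the nucleus, had 1 rise and no fall among 21 tested, with a median of 0.09. The rise makes 4.76% of the list, near the 3.55% of all tested genes called higher, so the count is no result about the list. The autophagy receptor Sqstm1 went from 225 ± 36.9 to 366 ± 45.1 FPKM and was called in 2 of the 6 left-out fits, those without vehicle replicate 3 or perhexiline replicate 1 (highest adjusted p 0.0980). Gpnmb, a glycoprotein abundant in macrophages and other lysosome-rich cells, stood at 324 ± 22.1 and 256 ± 25.2 FPKM (limma adjusted p = 0.0534), beside the lower macrophage markers given above, whose part in it was not tested. It was called lower in 4 alternatives, namely a minimum mean of 5 FPKM, upper-quartile scaling, limma-voom and leaving out perhexiline replicate 1.

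The genes whose profile over the 6 libraries was most like that of Ddit4 were Csf2rb, Slfn2, Tsc22d1, Fhdc1 and Ptx3, out of 8620 genes with a mean of at least 5 FPKM and a real symbol. Likeness was the root mean square difference in log2(FPKM + 1) after subtraction of each gene's vehicle mean, which was 0.0845, 0.0876, 0.0990, 0.111 and 0.128 in that order. Separate groups and calls follow from this choice. Csf2rb, a receptor subunit for colony-stimulating factors and interleukins, stood at 14.3, 16.2 and 14.5 FPKM with vehicle and 30.1, 27.2 and 27.5 with perhexiline. Ptx3, a secreted pattern-recognition protein of the pentraxin family, stood at 11.2, 13.5 and 11.9 and at 22.6, 28.9 and 21.0. Among the members the nearest to Ddit4 were Ddit4l (0.421) and Akt1s1 (0.470), and the others lay at 0.573 to 0.682.

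**Figure D4:**
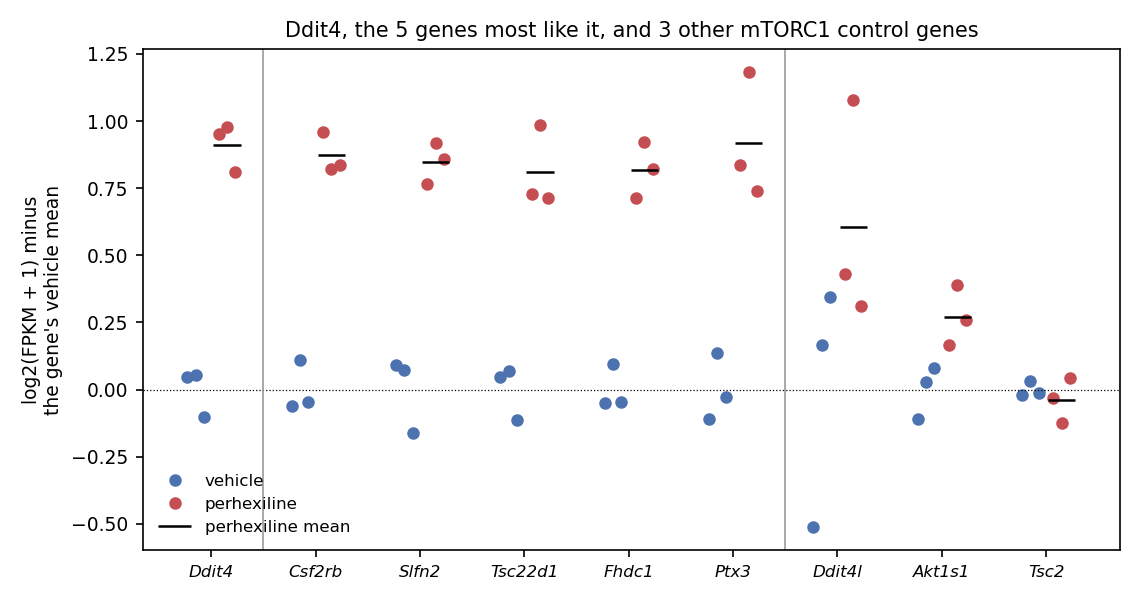
Each library's log2(FPKM + 1) minus the gene's vehicle mean, for Ddit4 (left), the 5 genes most like it (middle) and Ddit4l, Akt1s1 and Tsc2 (right), with vehicle in blue, perhexiline in red and a line at the perhexiline mean. The first 6 genes show separate groups with perhexiline means from 0.81 to 0.92, Ddit4l shows overlapping groups and Tsc2 lies around 0.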

How the data were processed

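The deposited values are FPKM per gene and library, made by the authors, per the file headers, and stand beside gene lengths and coordinates. The submitters' processing notes name HISAT2 2.0.5 and DESeq2 without their roles. Build, annotation and counter were not given in the sources used here. Titles gave the groups. Each positive FPKM, multiplied by gene length, was a whole multiple of its library's unit (100% within 0.01), and the multiples were taken as fragments. Counting errors cover counting alone.

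Genes reaching 1 FPKM in 3 or more of the 6 libraries (13460) entered a two-sided limma 3.58.1 fit (R 4.3.3, mean-variance trend) of log2(FPKM + 1) on group. A call is an adjusted p below 0.05 (Benjamini-Hochberg, over all genes tested). Low genes' changes are understated on this scale. Folds divide mean FPKM values. Every adjusted p of a gene is limma's. Ratios were tested by exact permutation (scipy 1.17.1). Fragment counts of replicates differed beyond sampling noise (chi-square over its degrees of freedom 4.93 to 8.73). Alternatives were another pseudocount, 2 other filters, 2 scalings, limma-voom on fragments, a replicate block and leaving out each library.

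Members, lists, naming rule and alternatives were chosen with earlier results of these data known. The rule named all members, up to 4 called genes per list by adjusted p (else the most abundant) and the 5 genes nearest to Ddit4. Other list genes with values, among them Hif1a, Sesn2, Ppp1r15a, Trib3, Chac1, Vegfa, Pdk1, Tfe3, Rps6kb1, Eif4b, Eif4g1, Gpnmb and Lamtor4, were chosen after their values were seen. Some genes stand in several lists, which makes list counts dependent, and some genes counted in them or tested are not reported here. Promoters are from RefSeq, build GRCr8. In data simulated from these libraries (200 changed genes, a median of 13266 tested) the fit found 63.9% of 1.5-fold changes and 86.6% of 2-fold changes, with 5.16% false calls.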

Additional observations from a re-analysis of the deposited data

How the results depend on the processing

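The Ddit4 difference kept its direction and its call under all 13 alternatives, and 1 of the 10 members was called under each except limma-voom on recovered fragments, which called 2. The count over all genes was 896, and it was 162 with no filter on low values, 1562 with limma-voom and 108 to 894 without 1 library. With the replicate number as a block it was 173. Same-numbered libraries did not deviate together (correlations -0.02, -0.10 and -0.04). With deviations from means of 3 libraries, a weak shared effect could be missed, so pairing by number is not settled. The block ended no member's call. In the lists it left 1 of 8 stress response calls (Gdf15) and 1 of 4 inducer calls (Cebpb), and it ended those of Rragc, Lamtor1, Prkag2, Sgk1, Mitf, Tsc22d3 and Slc2a1. The share of higher calls was 53.3%, against 71.0% with total-fragment scaling, and the all-gene median lay between -0.0031 and 0.06. Total-fragment scaling moved that median from 0.01 to 0.06, so the deposited scaling was not exactly by the fragment totals. Signs changed for members near 0: Deptor was -0.00073 under upper-quartile scaling and -0.0067 to 0.039 without 1 library, Mlst8 -0.013 and -0.021 to 0.030, and Tsc2 and Rheb 0.015 and 0.0045 with total-fragment scaling. Without 1 library Tsc2 ranged from -0.080 to 0.0049, Rheb from -0.11 to 0.023 and Tsc1 from -0.071 to 0.090. Mapkap1 was 0.038 with total-fragment scaling and -0.036 to 0.0078 without 1 library. The cause of these shifts was not tested. Ddit4l had the fewest fragments of the members, down to 33, and its replicate spread exceeded its counting error.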

Other observations

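Among tested genes near Ddit4 on chromosome 20, the 5 described here were not called with limma. The calcium uniporter Mcu stood at 0.935 times its vehicle mean, Dnajb12 at 1.14, Anapc16 at 1.06, Ascc1 at 1.14 and Spock2 at 0.779 (adjusted p from 0.102 to 0.473), and of these Dnajb12 and Ascc1 had an unadjusted p under 0.05. Anapc16, the nearest of them, lies 33247 bases away in the coordinates of the deposited table.

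Tsc22d1 and Tsc22d3 belong to the TSC22 domain family, which is unrelated to the tuberous sclerosis complex despite the symbols. Tsc22d1, described because its profile was near that of Ddit4, had a vehicle mean of 144 ± 9.81 FPKM and a perhexiline mean of 253 ± 27.6 (SD, n = 3 each). Tsc22d3 stood at 0.826 times its vehicle mean and was called in 4 of the 13 alternatives. The difference between these genes was not tested.

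Deptor varied less between replicates (3.71% and 1.91% of the mean) than its fragments alone would give on average (8.32% and 7.64%). So did Mlst8 (4.03% and 2.75%, against 5.11% and 4.71%). Ddit4l varied more than its counting error in both groups, as did Ddit4, Akt1s1, Rheb, Mtor and Rptor. Tsc1 and Tsc2 varied less than theirs with vehicle and more with perhexiline.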
